A study of Homo sapiens with 31 samples.

Results

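EVI1 binding was examined in MUTZ3 cells that carry an inducible 4xPLDLS construct, with and without induction. MUTZ3 is a human acute myeloid leukemia (AML) cell line in which a chromosome rearrangement activates EVI1. The 4 libraries were chosen by their labels as the EVI1 chromatin immunoprecipitation sequencing (ChIP-seq) libraries of this experiment, out of 31 samples of the study, of which 13 had a peak list here. All 4 come from one transduced population that was not a single clone and that carried lentiviral pCW-4xPLDLS, so the controls held the construct too. In 2 libraries 4xPLDLS was induced with doxycycline (dox) for 72 hours, and in the other 2 no dox was given. Both a protein crosslinker, DSG, and formaldehyde fixed the chromatin. The construct encodes 4 repeats of the stretch of EVI1 around its PLDLS motif. One input library of unprecipitated chromatin served each treatment, so the treatment and the input of its peak calls cannot be told apart. The sources used here do not say whether the 2 libraries of a treatment came from separate cultures, and p-values measure only the spread between them.

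EVI1 is a zinc finger transcription factor encoded by MECOM and needed for the upkeep of blood stem cells. Its amino-terminal fingers are known to bind a GATA-like sequence, and its carboxy-terminal fingers a sequence that resembles sites of ETS factors. Through the PLDLS motif it binds CTBP1 and CTBP2, corepressors that do not bind DNA by themselves and that bring histone-modifying enzymes to promoters and enhancers. A free peptide with the same motif competes for the pocket of CTBP in which EVI1 docks. The comparison asks whether EVI1 stayed at its own sites when that competitor was made.

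The windows printed here, the reference sequence (GRCh37, plus strand) from 100 bp before to 100 bp after a peak summit, show the kinds of DNA behind each class of site. They are the 2 strongest sites, a site with higher and 2 sites with lower fold enrichment after dox, the first 2 sites lost, and the first and the third of the gained sites. Capitals mark matches, on either strand, to AGATAA (core of the GATA-like EVI1 site and of GATA sites), to GACAAGATA (longer form of the same), to GAAGATGAG (site of the carboxy-terminal fingers), to AGGAAG (core of ETS sites), to TGTGGTT (RUNX), to TGANTCA (AP-1) and to GGGCGG (GC box, bound by SP factors).
Strongest, upstream of GTF3C5, chr9:135878472-135878672: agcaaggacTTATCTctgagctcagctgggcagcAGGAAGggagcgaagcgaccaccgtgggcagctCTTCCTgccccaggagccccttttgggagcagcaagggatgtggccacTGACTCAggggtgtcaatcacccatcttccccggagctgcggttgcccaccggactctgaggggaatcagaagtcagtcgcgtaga
Strongest, upstream of ZMIZ1, chr10:80713021-80713221: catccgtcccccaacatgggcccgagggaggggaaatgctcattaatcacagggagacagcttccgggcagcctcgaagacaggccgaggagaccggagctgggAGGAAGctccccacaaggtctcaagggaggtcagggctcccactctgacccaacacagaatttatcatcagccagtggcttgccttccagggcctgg
Higher fold enrichment, MAP4K4 intron, chr2:102458931-102459131: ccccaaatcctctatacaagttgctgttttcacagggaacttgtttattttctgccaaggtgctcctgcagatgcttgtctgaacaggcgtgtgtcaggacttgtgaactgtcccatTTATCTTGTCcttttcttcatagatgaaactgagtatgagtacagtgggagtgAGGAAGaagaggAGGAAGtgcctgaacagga
Lower fold enrichment, upstream of BOD1L1, chr4:13655910-13656110: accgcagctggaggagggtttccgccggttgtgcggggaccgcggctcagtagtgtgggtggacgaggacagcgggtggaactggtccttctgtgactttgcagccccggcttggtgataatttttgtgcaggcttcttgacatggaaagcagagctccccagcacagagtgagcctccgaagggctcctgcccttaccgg
Lower fold enrichment, RDH13 exon near GP6, chr19:55553305-55553505: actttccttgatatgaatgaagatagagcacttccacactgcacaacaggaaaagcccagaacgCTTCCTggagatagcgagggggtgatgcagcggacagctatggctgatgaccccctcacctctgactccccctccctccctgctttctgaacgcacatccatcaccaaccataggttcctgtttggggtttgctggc
Lost, RAPGEF3 exon near SLC48A1, chr12:48135291-48135491: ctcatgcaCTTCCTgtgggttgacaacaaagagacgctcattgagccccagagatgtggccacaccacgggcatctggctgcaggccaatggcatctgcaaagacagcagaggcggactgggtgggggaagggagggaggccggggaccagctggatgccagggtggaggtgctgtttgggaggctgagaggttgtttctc
Lost, DNAH10 exon near ZNF664, chr12:124412925-124413125: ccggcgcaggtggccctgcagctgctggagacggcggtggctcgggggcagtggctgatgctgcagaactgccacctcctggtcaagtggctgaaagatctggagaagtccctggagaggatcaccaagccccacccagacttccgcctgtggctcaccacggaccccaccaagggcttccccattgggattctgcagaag
Gained, TENM4 intron, chr11:78512313-78512513: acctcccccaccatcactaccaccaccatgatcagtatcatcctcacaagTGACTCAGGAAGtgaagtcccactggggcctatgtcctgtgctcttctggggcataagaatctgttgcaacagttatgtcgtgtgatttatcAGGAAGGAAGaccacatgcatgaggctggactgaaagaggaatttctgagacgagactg
Gained, ARHGAP31 intron, chr3:119062641-119062841: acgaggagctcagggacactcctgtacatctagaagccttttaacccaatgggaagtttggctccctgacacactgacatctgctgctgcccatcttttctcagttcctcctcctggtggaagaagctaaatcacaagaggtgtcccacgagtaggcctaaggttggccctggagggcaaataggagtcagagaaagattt
The strongest window held an AGATAA match, 2 AGGAAG matches and an AP-1 match. The MAP4K4 window held GACAAGATA, which occurred in 0.34% of all 87213 site windows. The BOD1L1 window that fell, the lost DNAH10 window and the gained ARHGAP31 window held none of these letters. A match is a description of the letters only.

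The authors had called peaks in each library on its own. Untreated replicates 1 and 2 had 51389 and 72214 peaks, and dox replicates 1 and 2 had 53806 and 47599, so dox replicate 1 lay between the untreated values and dox replicate 2 below them (exact two-sided permutation test, p = 0.667; 2 libraries against 2 cannot give less than 0.33). The deposited fold enrichment is the number of fragments at the summit plus 1 over the local background plus 1. Untreated replicate 1 had more reads than its input, and its fragments enter this ratio scaled down to the depth of the input. The fragments given below for that library are not scaled down. Together with the deposited p-value, fold enrichment gave back both fragments and background for 98.3% to 99.99% of the peaks of a library. Fragments are reads, extended by the peak caller, that cover the summit, and the background is the number expected there from the input. With M for 1000000 reads, the recovered depth was 15.9 M and 11.03 M for the untreated libraries and 12.8 M and 13.1 M for the dox libraries, over inputs of 13.6 M (untreated) and 17.4 M (dox). Fragments per M reads below are fragments divided by the depth of the library. Background per M reads is divided by the smaller of the depths of library and input, which for untreated replicate 1 was its input. Untreated replicate 2 stood apart, with the fewest reads and the longest list.

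The 4 lists joined into 89089 sites wherever peaks shared 1 bp or more. Both untreated libraries had 40095 of them, and 31340 of these (78.2%) were kept, that is, called in both dox libraries as well. A further 5111 (12.7%) were called in 1 dox library, and 3644 (9.09%) were lost, with a peak in neither. Of the 37206 sites of both dox libraries, 1616 (4.34%) were gained, with a peak in neither untreated library. The counts of lost and gained sites moved with the length of the lists. With the 47599 strongest peaks of each list, 2769 sites were lost and 2792 gained. Without untreated replicate 2, the longest list, 8170 sites were lost and 3877 gained, and a site then needed only untreated replicate 1. Lost and gained sites numbered 27729 and 3774 without untreated replicate 1, 7738 and 5147 without dox replicate 1, and 4762 and 7039 without dox replicate 2. Of the 36568 sites called in a single library, 23796 were called in untreated replicate 2.

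Kept sites were strong and lost sites were weak. The median fold enrichment of kept sites was 7.53 in untreated replicate 1 and 9.62 in untreated replicate 2, and that of lost sites was 4.81 and 5.11. In fragments, kept sites had medians of 34 and 35 at the summit and lost sites 15 and 13. Gained sites resembled lost sites in strength, with a median fold enrichment of 4.87 and 4.93 and a median of 14 fragments in both dox libraries. Of the lost sites, 16.1% and 36.4% lay in the upper part of the untreated lists, above the median peak, against 67.2% and 84.8% of the kept sites. Lost peaks were narrow, with medians of 299 and 376.5 bp against 607 and 746 bp for kept sites.

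Kept EVI1 sites lay at promoters far more often than lost or gained ones. A summit lay within 1000 bp of the nearest protein-coding transcription start site (TSS) at 28.1% of kept sites (95% Wilson interval 27.6 to 28.6), at 6.79% of lost sites (6.01 to 7.66) and at 3.42% of gained sites (2.64 to 4.43). Over all sites the share was 13.5%. The share of kept sites stayed above both others under each alternative run, but the order of lost and gained sites did not hold. With a fold enrichment of at least 5 the shares were 17.0% of lost and 11.3% of gained sites. With summits within 200 bp they were 11.95% and 16.6%, with lists of equal size 8.54% and 10.2%, and without untreated replicate 2 they were 6.53% and 9.12%. The median distance to the TSS was 12352.5 bp for kept, 24727 bp for lost and 37670 bp for gained sites. More than 100 kb from the nearest protein-coding TSS lay 12.9% of kept, 15.9% of lost and 24.0% of gained sites. Intervals here and below cover counting error only, and sites of one library are not replicates.

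**Figure D1:**
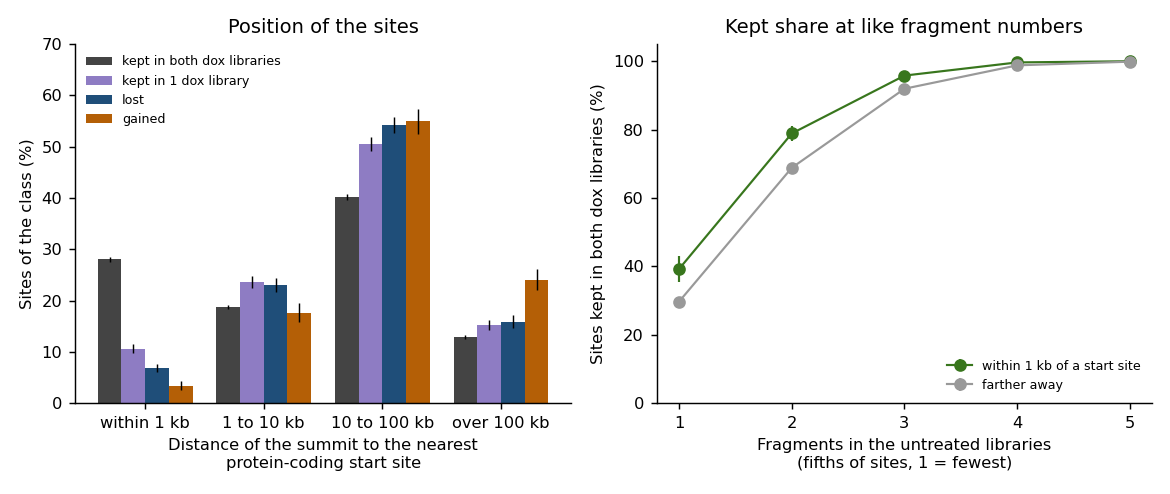
Distance of EVI1 sites to the nearest protein-coding TSS by class, and the share kept with dox in 5 bands of strength for sites at promoters and elsewhere. Promoter sites make up 28.1% of kept, 6.79% of lost and 3.42% of gained sites.

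Promoter sites were kept more often than others of like strength, and the gap was smaller in fragments than in fold enrichment. With untreated sites split into 5 equal bands by fragments per M reads, 39.3% of promoter sites and 29.7% of the others were kept in the weakest band, 78.9% and 68.8% in the next, 95.8% and 91.9% in the middle one, and 99.96% and 99.8% in the strongest. With bands of fold enrichment it was 74.9% against 43.9% in the weakest band and 100% against 99.7% in the strongest. Among sites with the fold enrichment of the middle 50% of lost sites, 27.1% of 4704 kept sites and 6.71% of 1789 lost sites lay at a promoter. Those kept sites had 1.45 and 2.00 fragments per M reads in the 2 untreated libraries and the lost ones 0.943 and 1.18, over a background of 0.260 and 0.294 against 0.146 and 0.147. At equal fold enrichment, kept sites thus had more fragments on a higher background.

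The classes also differed in the base composition of their windows. Kept sites had a median GC content of 58.2%, lost sites of 56.2% and gained sites of 51.2%, against 47.8% in windows 2000 bp away. Split into 5 bands of GC content, 10.4%, 11.4%, 11.5%, 10.0% and 4.45% of untreated sites were lost from the lowest to the highest band. Gained sites fell steadily in share, with 10.1%, 6.62%, 3.40%, 1.87% and 0.698% of dox sites. Untreated replicate 2 differed from the other 3 libraries in this respect. At sites called in all 4 lists, its log2 fragments in the lowest band lay 0.61 below its own mean, against 0.23 below in dox replicate 1 and less than 0.01 away in untreated replicate 1 and dox replicate 2. Without untreated replicate 2, the gained shares were 13.8%, 13.9%, 11.3%, 8.79% and 5.05%, and the lost shares 25.6%, 18.9%, 15.9%, 13.8% and 6.48%, a decline over all bands. Without untreated replicate 1, the lost shares were 31.6%, 40.9%, 44.95%, 46.3% and 29.1%, which rose over the first 4 bands. The part of this library's base composition in the classes was not tested otherwise.

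**Figure D2:**
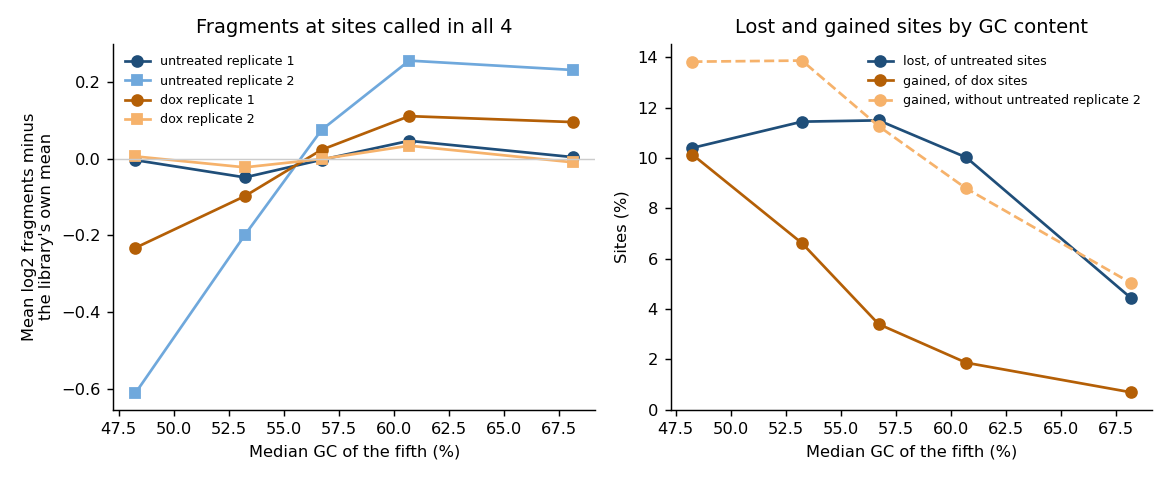
Share of lost and gained EVI1 sites in 5 bands of GC content of the summit window, and the fragments of each library in those bands relative to its own mean. Gained sites decline from 10.1% to 0.698%, and untreated replicate 2 has the lowest value of the 4 libraries in the lowest band.

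Of the letters searched, the GC box GGGCGG stood in 28.3% of kept, 13.9% of lost and 7.16% of gained windows, in 19.2% of all site windows and in 6.999% of windows 2000 bp away. The ETS core AGGAAG was frequent in all classes, at 44.6%, 37.9% and 40.9%, against 20.5% away from sites. For AGATAA, AP-1 and RUNX the lost windows lay below and the gained windows above the kept ones, but some of these gaps were small. The core AGATAA stood in 7.72% of kept, 6.70% of lost and 11.7% of gained windows, and in 10.1% of windows away from sites, which are richer in A and T. The AP-1 letters TGANTCA stood in 6.55%, 6% and 11.6%, and the RUNX letters TGTGGTT in 7.66%, 5.63% and 8.28%. The longer EVI1 sites were rare. GACAAGATA stood in 0.30% of kept, 0.17% of lost and 0.81% of gained windows, and GAAGATGAG in 0.65%, 0.39% and 1.00%.

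An EVI1 peak of the single unmodified MUTZ3 library overlapped 47.4% of kept sites, 2.58% of lost sites, 8.23% of gained sites and 19.7% of all sites. Gained sites lay near a kept site less often than sites in general, and lost sites did not. A kept site lay within 5 kb of 35.4% of lost, 24.1% of gained and 31.3% of all sites. For the kept sites themselves it was 32.4% when the nearest other kept site was taken.

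CTBP2 was called at most kept EVI1 sites without dox and at fewer with dox. CTBP2 libraries of the same cells and treatments gave a peak in both untreated CTBP2 libraries at 84.8% of kept EVI1 sites, and in both dox CTBP2 libraries at 43.1%. At lost EVI1 sites the shares were 34.2% and 1.76%, and at gained sites 9.41% and 6.44%. Over all 89089 EVI1 sites they were 39.7% and 17.2%. EVI1 was itself kept at 98.1% of its 13545 sites where CTBP2 was called in all 4 CTBP2 libraries, and at 71.0% of the 10219 where CTBP2 was called in both untreated and neither dox library, with 10.3% lost. Where no CTBP2 peak was found, 32.8% of 2584 EVI1 sites were kept and 38.4% lost. These classes also differed in EVI1 strength, with a median percentile in the untreated lists of 82.97, 55.7 and 36.7 in the same order, and the part of strength in these shares was not tested.

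At EVI1 sites called in all 4 lists, the median difference in EVI1 fragments was near 0 with and without a CTBP2 peak after dox, and higher where CTBP2 had no peak at all. The log2 differences here are quantile-normalised, which holds the median over all sites near 0, so a fall common to all sites cannot show. Per M reads, without that scaling, the median over 31182 sites was -0.13. Where the CTBP2 peak was called in all 4 CTBP2 libraries, the median log2 difference with dox of EVI1 fragments was -0.03 over 13266 sites. Where CTBP2 was called in neither dox library it was 0.0033 over 7224 sites, and the fold enrichment there differed by -0.16 and the background by 0.19. EVI1 fragments per M reads at those 7224 sites had medians of 1.70 and 2.54 without dox and 2.12 and 1.75 with dox, and the groups overlapped. With no CTBP2 peak in any of the 4 CTBP2 libraries, the median log2 difference of fragments was 0.11 over 835 sites (quartiles -0.14 and 0.36). The CTBP2 lists share their inputs with the EVI1 lists of the same treatment.

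Among sites called in all 4 lists, libraries of the same treatment were more alike in fold enrichment than libraries of different treatments, but not clearly so in fragments. Spearman's correlation over the 31182 sites with recovered fragments, given as a description since sites share libraries, was 0.749 between the untreated and 0.817 between the dox libraries for fold enrichment, and 0.556 to 0.645 across treatments. For fragments it was 0.818 and 0.886 within, and 0.784 to 0.872 across treatments. For the background it was 0.834 and 0.848 within, and 0.401 to 0.410 across. The gap between treatments was thus widest in the background, which the caller takes from the inputs.

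Rank shifts showed the same order of the measures. From the mean rank without dox to that with dox, 7325 sites (23.4%) moved by more than 25 percentile points in fold enrichment, 11890 (38.1%) in background and 1304 (4.18%) in fragments. In fold enrichment, both dox ranks lay above both untreated ranks at 8086 sites (25.8%) and below at 8807 (28.1%). On quantile-normalised log2 fold enrichment, limma called 905 sites (2.89%) higher and 829 (2.65%) lower with dox at an adjusted p under 0.05, and 7406 sites had an unadjusted p under 0.05. On fragments it called 0 of 31182 sites (0%), with 1842 at an unadjusted p under 0.05 and a smallest adjusted p of 0.237. On the background it called 10388 sites (33.3%). From the 5th to the 95th percentile, log2 differences ran from -0.90 to 0.93 for fold enrichment and from -0.49 to 0.53 for fragments. Leaving out either dox library left 0 sites called in fold enrichment, and leaving out untreated replicate 2 left 278 higher and 130 lower.

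The sites called in fold enrichment moved in their background more than in their fragments. At 901 of the 905 higher sites, those with recovered fragments in all lists, the median log2 difference was 1.24 in fold enrichment, 0.33 in fragments and -1.19 in background. At 826 of the 829 lower sites it was -1.21, -0.25 and 1.23. Fragments were higher with dox at 88.8% of the former and at 13.1% of the latter, and the background was higher at 2.11% and 99.8%. Over all sites tested, fragments were higher at 48.2% and the background at 49.9%. Fold enrichment is a ratio of fragments to background, so the choice of these sites favours such shifts in both. At the higher sites the median background was 0.367 per M reads in both untreated libraries and 0.178 and 0.172 with dox. At the lower sites it was 0.147 and 0.158, against 0.459 and 0.402. EVI1 in the treated cells and the input of the treated cells cannot be told apart in fold enrichment.

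Of the higher sites 15.3% lay at a promoter, against 27.7% of all sites tested, and of the lower ones 28.1%. AGATAA stood in 14.05% and the RUNX letters in 13.8% of the windows of higher sites, and in 7.42% and 7.54% of those of lower sites. The GC box stood in 17.0% and 31.0%. Over all kept sites, which are the sites tested, the shares were 7.72% for AGATAA, 7.66% for RUNX and 28.3% for the GC box. Median GC content was 53.7% at higher and 60.2% at lower sites, and its part in these shares was not tested.

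The sites with the largest rise in fold enrichment were mostly distal. One of them, in a MAP4K4 intron (chr2:102458674-102459522, nearest TSS that of FLJ20373), had a fold enrichment of 8.95 and 3.90 without dox and of 27.2 and 38.2 with dox, a log2 difference of 2.60 ± 0.39 (SE; limma, adjusted p = 0.0059). Its fragments were 72 and 25 against 66 and 92. Per M reads these were 4.53 and 2.27 against 5.18 and 7.0, which did not overlap.

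At 3 of the 10 sites with the largest rise, fragments had a log2 difference above 1.9. In an EPG5 exon (chr18:43470594-43471031), 65168 bp from the TSS of SIGLEC15, a sialic acid-binding receptor of myeloid cells, fragments were 22 and 15 without and 76 and 97 with dox. Their log2 difference was 2.37 (limma, adjusted p = 0.237), and the background differed by -0.04. In an intron of APP, which encodes the amyloid precursor protein (chr21:27275819-27276440), fragments were 16 and 15 against 56 and 63. In an intron of CAPZB, a subunit of the actin capping protein (chr1:19674150-19674916), they were 24 and 13 against 64 and 61. At these 3 sites the dox libraries lay above both untreated ones without overlap, and none passed the test on fragments. Over all sites tested, ranks by fragments were higher without overlap at 16.1%, and the choice of these sites favours such rises.

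Upstream of RPS6KA3, a ribosomal S6 kinase (chrX:20333303-20333716), fragments were 16 and 10 without and 32 and 45 with dox. At the TSS of P2RY14, a receptor for UDP-glucose (chr3:150995937-150996564), they were 96 and 17 against 62 and 98, which overlapped, while its log2 fold enrichment differed by 2.34 (limma, adjusted p = 0.023). Also among the 10 were a site 407562 bp upstream of BOD1L1, one near PDE6H and one in a MACC1 intron, with log2 differences of 2.15 to 2.28 in fold enrichment and 0.26 to 0.86 in fragments.

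At the 10 sites with the largest fall in fold enrichment, fragments differed by less than fold enrichment. At 7 of them fragments per M reads were lower in both dox libraries without overlap. Over all sites tested, ranks by fragments were lower without overlap at 19.6%. The choice by fold enrichment, which contains the fragments, favours such falls. The largest fall was 26661 bp upstream of BOD1L1 (chr4:13655758-13656395), where fold enrichment was 13.4 and 12.1 without and 2.64 and 2.34 with dox, and fragments were 38 and 27 against 21 and 19. An exon of RDH13 next to GP6, the collagen receptor of platelets (chr19:55552629-55554353), was among the strongest untreated sites with 43.98 and 59.9, and fell to 12.0 and 9.50. Its fragments were 175 and 186 against 151 and 116, while its background was 0.179 and 0.192 per M reads against 0.918 and 0.861. The log2 difference was -2.05 in fold enrichment (limma, adjusted p = 0.0037) and -0.30 in fragments, and fragments per M reads overlapped between the treatments.

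The remaining 8 sites with a large fall lay nearest to INSIG1, PEDS1, MMEL1, SLC35D3, SPATA5L1, CCDC85B, HES1 and SYNDIG1. Their log2 differences ran from -2.04 to -1.87 in fold enrichment and from -1.07 to -0.42 in fragments. The site at the TSS of SPATA5L1 (chr15:45694191-45695821) had 55 and 43 fragments without and 36 and 30 with dox. The site 238132 bp upstream of HES1, a Notch target (chr3:193615296-193616104), had 53 and 106 against 39 and 47, and overlapped per M reads. At each of these 10 sites the background per M reads was higher in both dox lists.

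The 5 strongest EVI1 sites lay within the first 30 ranks of every list. They were chosen by their mean rank over all lists, dox lists included, so high ranks with dox follow from the choice. The site 27490 bp upstream of GTF3C5 (chr9:135877788-135880889) ranked 5 and 2 without and 6 and 8 with dox, with 332 and 414 against 402 and 355 fragments, which overlapped. The site 115602 bp upstream of ZMIZ1, a coactivator of RUNX1 and SMAD factors (chr10:80712302-80714455), ranked 1 in both untreated libraries, then 8 and 18 with dox. Its fold enrichment fell (log2 difference -0.56; limma, adjusted p = 0.017), with fragments of 327 and 404 against 378 and 311, which overlapped. A TBC1D5 intron (chr3:18264915-18265915) had 297 and 256 against 322 and 322 fragments, and a KCNAB2 intron (chr1:6085342-6088822) had 209 and 285 against 290 and 259. Per M reads the TBC1D5 site had 18.7 and 23.2 against 25.3 and 24.5 and did not overlap, and the KCNAB2 site overlapped.

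Upstream of CSF2RA, the receptor chain for GM-CSF (chrX:1367134-1369398), the fragments were 253 and 294 without and 242 and 195 with dox, and per M reads they were 15.9 and 26.7 against 18.98 and 14.8, which overlapped. This interval lies in the pseudoautosomal region, which the reference holds in 2 copies, so its reads may be split. Of the 5 strongest sites, ZMIZ1 was the one called in fold enrichment, and none was called in fragments.

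The strongest lost sites were of middling strength. A RAPGEF3 exon near SLC48A1, a haem transporter (chr12:48135129-48135692), had a fold enrichment of 11.01 and 15.6 with 31 and 35 fragments in the untreated libraries. A DNAH10 exon near ZNF664 (chr12:124412677-124413410) had 25 fragments in both. The others of the 8 strongest lost sites lay nearest to FOXD4L4, GFRA2, ENSG00000290316, KANK1, CELSR2 and SERPIND1, with 17 to 31 fragments. FOXD4L4 belongs to a family of near-identical genes, so its reads are uncertain. CTBP2 had a peak in both untreated CTBP2 libraries at 7 of the 8, GFRA2 being the exception. Over all lost sites, most of them weaker, the share was 34.2%.

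The strongest gained sites were alike in size. An intron of TENM4 (chr11:78512155-78512640), 226174 bp from the TSS of NARS2, had a fold enrichment of 14.8 and 12.7 with 32 and 27 fragments in the dox libraries. An ARHGAP31 intron (chr3:119062408-119062940) had 28 fragments in both. The others lay nearest to PCMTD1, OGFRL1, LYPD1, NBPF15, ANKRD36B and MLANA, with 21 to 38 fragments, and NBPF15 and ANKRD36B belong to duplicated gene families in which reads are uncertain. None of the 8 had a CTBP2 peak in both untreated CTBP2 libraries, which was also rare over all gained sites, at 9.41%.

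Few genes lost all of their EVI1 sites. Lost sites lay nearest to 2753 protein-coding genes, of which 2336 also had a kept site. All untreated sites were lost at 344 of 14149 genes, and only 30 of these had 2 sites or more. Gained sites lay nearest to 1431 genes, 155 of which had no untreated site. Both lost and gained sites were found at 388 genes.

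The genes with most lost sites were TMEM121, GALNT9, ZNF875, IZUMO2 and KDM4B. Over all protein-coding genes 9.07% of untreated sites were lost and 4.39% of dox sites gained. A gene with many sites can head such a ranking at a share near these. TMEM121 is the nearest protein-coding TSS for the immunoglobulin heavy chain locus, and 12 of its 96 untreated sites (12.5%) were lost, over 1189 kb of chromosome 14. GALNT9, an enzyme of mucin glycosylation, lost 7 of 10, and KDM4B, a histone demethylase, lost 6 of 12. ZNF875 lost 6 of 10 over 28.6 kb and IZUMO2 6 of 12 over 24.2 kb, both on chromosome 19. The genes with most gained sites were JARID2, a cofactor of Polycomb complex PRC2, with 5 of 24 dox sites, and SPTSSA with 4 of 10. CITED2, a partner of CBP and p300 needed in blood stem cells, had 4 of 16, BCL11A, the repressor of fetal globin genes, 4 of 19, and KLF6 4 of 23. BCL11A also lost 3 of 14.

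Gene lists of the blood system did not stand far from the background, where 9.07% of 39313 untreated sites near protein-coding genes were lost and 4.39% of dox sites gained. Near haematopoietic transcription factors 6.87% of 262 sites were lost and 5.22% of dox sites gained, and of 204 tested 6 were called higher and 4 lower in fold enrichment, against 2.89% and 2.65% over all sites tested. RUNX3, with 37 untreated sites, lost 4. GATA2 lost a site 25163 bp upstream (chr3:128237001-128237379) with 18 and 16 fragments and gained one 4650 bp upstream (chr3:128216296-128216914) with 15 and 9. RUNX2 lost its single site, and LMO2, a bridging factor of stem cell complexes, lost 1 of 9. Their median log2 difference was -0.0018 in fold enrichment and 0.0053 in fragments, against -0.0062 and -0.0091 over all genes.

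Near neutrophil and monocyte genes 10.5% of 86 sites were lost and 5.13% gained. ELANE, neutrophil elastase, lost its single site. CSF3R, the receptor for G-CSF, lost 2 of 13 and gained 2 of 14, among them a peak at its TSS (chr1:36948344-36948754) with 10 fragments in both dox libraries. CSF1R, the macrophage receptor, lost 2 of 8, and CD14 gained 1 at its TSS (chr5:140012753-140013060) with 11 and 13 fragments. Near erythroid and megakaryocyte genes 8.16% of 49 sites were lost and 0% gained. There, a site upstream of TFRC, the transferrin receptor, was called lower, with a log2 difference of -0.96 in fold enrichment and of -0.13 in fragments.

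Among stem cell receptors and adhesion genes 8.62% of 116 sites were lost and 3.31% gained. CD34, the progenitor marker, lost 3 of 18 and gained 1, and CXCR4 lost 2 of 13. ITGB1, an integrin chain, had a site 120558 bp upstream called higher, with 27 and 41 against 42 and 32 fragments. ESAM, an endothelial and stem cell adhesion molecule, had a site 918 bp upstream called lower (log2 fold enrichment -1.31; limma, adjusted p = 0.023), with 63 and 72 against 52 and 24 fragments. Among lymphoid genes 7.02% of 57 sites were lost and 9.09% gained, the latter being 5 sites at 5 genes, including CD247 and CD8A. Among cell cycle and apoptosis genes 9.47% of 95 were lost and 3.57% gained. BCL2 lost 4 of 18, one of them an exonic site 1967 bp from the TSS (chr18:60985259-60986046), and CCND1 (cyclin D1) lost 2 and gained 2.

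SMAD factors carry signals of TGF-beta, which EVI1 is known to repress, and CTBP is part of that repression. Near TGF-beta and SMAD genes 10.6% of 179 sites were lost and 4.58% gained, with 5 of 133 tested called higher and 2 lower. SMAD3 had a site called higher 29904 bp into the gene (log2 fold enrichment 1.37) with 116 and 123 against 134 and 99 fragments, and a site called lower 46300 bp upstream (-1.26) with 34 and 31 against 25 and 20. SMAD2 lost 3 of 11 sites and TGFBR1 1 of 7. Near genes of the CTBP corepressor complex 8.75% of 160 sites were lost and 5.84% gained, with 5 of 126 tested called higher and 0 lower. CTBP2 itself lost 1 of 3, CTBP1 gained 1 and RCOR1 lost 2 of 7.

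MEIS1, a homeobox partner of HOX proteins in leukemia, had a site 92366 bp into the gene (chr2:66752754-66753119) that was singled out after its values were seen. Its fold enrichment was 8.33 and 9.54 without and 16.4 and 17.8 with dox, and its fragments were 28 and 24 against 58 and 62. The log2 difference of fragments was 1.37 (limma, adjusted p = 0.375), the largest among the 34 called sites of these gene lists.

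Peak width did not clearly follow the treatment. At sites called in all 4 lists the median width was 607 and 746 bp without and 631 and 517 bp with dox, a log2 difference of -0.24 (exact two-sided permutation test, p = 0.667). Divided by the shortest peak of each list, it was 2.75 and 3.13 against 2.84 and 2.45. Median fold enrichment at these sites, 7.53 and 9.62 against 7.75 and 6.72, had the same order over the libraries as the width. Median fragments per M reads did not, at 2.14 and 3.17 against 2.59 and 2.21, and overlapped between treatments. A link of width to strength was not tested.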

How the data were processed

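Per the labels and the processing notes, reads were demultiplexed with bcl2fastq 1.8.4 and aligned to hg19 with Bowtie 1.1.1, and the authors called peaks per library with MACS2 2.1.2 against a matched input. The deposited peak lists give a fold enrichment (ratio) and −log10 p and −log10 q at each summit, as computed by the authors with default settings. Other filters on reads are not given in the sources used here. The lists hold no read counts.

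Here, peaks sharing 1 bp or more were joined into sites, each library represented by its strongest peak. Fragments and background at a summit were solved from fold enrichment and −log10 p (tolerance 0.0001, genome size 2.7e+09 bases), after the data were seen. Sites called in all 4 lists were compared with limma 3.58.1 (trend) in R 4.3.3 on quantile-normalised log2 values, with Benjamini-Hochberg adjustment at 0.05. TSS were the gene starts of GENCODE protein-coding genes mapped to GRCh37, and other transcript starts were not used. Named sites were the 5 strongest, the 10 largest rises and falls past the threshold without overlap, the 8 strongest lost and gained sites, the 5 genes with most of each, and up to 4 members per gene list in list order with a lost, gained or called site. The 5 strongest were taken by mean rank of fold enrichment over all 4 lists, dox lists included. The members and lists were chosen with earlier results of these data known. Alternatives were peak strength, list size, overlap rule, chromosomes, measure, scaling, threshold, annotation, replicate block and libraries left out. The procedure was tested on simulated data. Python 3.11.15, numpy 2.4.6, pandas 2.3.3, scipy 1.17.1, pysam 0.24.0 and matplotlib 3.10.9 were used. Some named items are not reported here.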

Additional observations from a re-analysis of the deposited data

How the results depend on the processing

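The share of kept sites was 68.2% with a fold enrichment of at least 5, 78.7% with a −log10 q of at least 5, 80.5% with lists of equal size and 74.0% with summits within 200 bp, and it ran from 47.3% to 88.1% with a library left out. The count of lost sites ran from 4762 to 27729 and that of gained sites from 3774 to 7039 with a library left out, by construction larger since fewer libraries must agree, and lists of equal size gave 2792 gained sites. Sites called higher with dox numbered 11 by −log10 p, 1942 at an adjusted p under 0.1 and 0 by fragments, by fragments per M reads and by fragments with the replicate block, and 0 to 1332 with a library left out. Sites called lower numbered 0, 1876, 0, 0 and 0, and 0 to 823. By −log10 p, limma gave 3826 sites at an unadjusted p under 0.05. The measures by fragments were chosen after seeing the data.

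The same-numbered libraries did not deviate together (correlation -0.24 in log2 fold enrichment, over 2 pairs), so the numbers were not used as pairs. With the replicate block, 885 sites were called higher and 707 lower, and with a crossed replicate block, added after seeing the data, 2460 and 2278. The width difference stayed at -0.24 with the replicate block (exact permutation test, p = 1).

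The promoter share of lost minus kept sites was -21.3 percentage points. It was -10.8 with a fold enrichment of at least 5, -19.4 with −log10 q of at least 5, -20.1 with lists of equal size, -13.6 with summits within 200 bp and -22.4 with start sites of all gene types, and ran from -21.9 to -17.8 with a library left out. That of gained minus kept sites was -24.7, and it was -16.5, -18.4 with lists of equal size, -9.02 with summits and -27.5 with all gene types, and ran from -23.7 to -17.4. Among the strongest sites, none of these values called, the log2 difference turned its sign for GTF3C5 by fragments (0.092), for TBC1D5 (from -0.13 to 0.25) with a library left out, below 0 without untreated replicate 2 and without dox replicate 2 (-0.069), and for NPHP4 by −log10 p (0.21), by fragments (0.30) and without untreated replicate 2 (0.091; from -0.14 to 0.091 over the libraries left out). The 20 sites named for a rise or fall kept their direction under each alternative run, which the rule that chose them favours. By −log10 p, 7 of the rises and 10 of the falls no longer passed the threshold, and by fragments 0 of 20 passed it. The cause was not tested. With 2 libraries per treatment and medians of 13 to 15 fragments at lost and gained sites, a loss cannot be told from a weak peak that missed the calling threshold.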
